A study of Mus musculus with 8 samples.

Results

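The zinc finger genes Egr1, Egr2, Egr3 and Egr4 and the corepressor genes Nab1 and Nab2 were followed through 300 min of raised network activity in cultured mouse hippocampal neurons. The 6 genes were chosen by their symbols, with earlier results of these data known. Each was measured by 1 transcript cluster, the array's probe set for a transcribed locus, among 19938 genes in all. RNA was taken from hippocampal neurons of ICR mice, an outbred strain, prepared at embryonic stage E17.5, grown for 10 days in culture and exposed to 50 µM bicuculline for 0, 30, 180 or 300 min. Bicuculline blocks GABA-A receptors and so relieves inhibition in the network. Each time had 2 biological replicates on Affymetrix Mouse Gene ST 1.0 arrays, and all groups shared the same strain, age and culture time. No vehicle-only culture is described for 30, 180 or 300 min. Changes are therefore taken from the 0 min arrays, and time in the experiment cannot be told apart from time with the drug.

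Egr proteins are transcription factors with a conserved zinc finger domain that binds GC-rich sites, and their genes are immediate-early genes, transcribed from existing factors without new protein synthesis. In neurons their transcription follows calcium entry and MAP kinase signalling to serum response factor with its Elk partners and to CREB. Nab1 and Nab2 bind Egr1, Egr2 and Egr3 and repress the genes those factors occupy, and Nab2 is known in several cell types as an Egr target that closes a feedback loop.

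Promoter sequence is shown first, as a description. Whether it bears on which genes rose was not tested. RefSeq (assembly GRCm38.p6) gave a window of the 250 bases before a transcription start for 4 of the 6 genes, Egr2, Egr4, Nab1 and Nab2, and several starts for Egr2, of which 1 is printed. They are written 5′ to 3′ on the gene's strand, with matches to the motifs searched in capitals. The windows are chr10:67537619-67537868 (plus strand) for Egr2, chr6:85513590-85513839 (minus strand) for Egr4, chr1:52500449-52500698 (minus strand) for Nab1 and chr10:127666704-127666953 (minus strand) for Nab2.
Egr2: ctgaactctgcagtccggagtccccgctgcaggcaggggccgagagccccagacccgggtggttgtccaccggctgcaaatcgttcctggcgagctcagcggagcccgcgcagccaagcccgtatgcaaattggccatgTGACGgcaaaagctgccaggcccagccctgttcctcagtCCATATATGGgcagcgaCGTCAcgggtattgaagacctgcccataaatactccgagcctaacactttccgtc
Egr4: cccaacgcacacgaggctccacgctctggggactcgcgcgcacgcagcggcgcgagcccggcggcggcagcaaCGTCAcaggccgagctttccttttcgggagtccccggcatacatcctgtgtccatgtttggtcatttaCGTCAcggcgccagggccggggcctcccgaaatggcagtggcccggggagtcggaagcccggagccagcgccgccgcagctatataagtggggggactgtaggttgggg
Nab1: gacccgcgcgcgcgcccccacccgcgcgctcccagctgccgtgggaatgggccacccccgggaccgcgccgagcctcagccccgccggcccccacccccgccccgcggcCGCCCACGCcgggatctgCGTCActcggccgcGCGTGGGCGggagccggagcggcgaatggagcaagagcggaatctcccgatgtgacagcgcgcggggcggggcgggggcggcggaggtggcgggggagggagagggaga
Nab2: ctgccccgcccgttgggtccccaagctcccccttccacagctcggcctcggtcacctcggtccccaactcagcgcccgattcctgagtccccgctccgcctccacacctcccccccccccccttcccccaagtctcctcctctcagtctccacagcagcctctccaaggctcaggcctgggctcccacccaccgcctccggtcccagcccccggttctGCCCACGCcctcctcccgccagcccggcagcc

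Both strands were searched for TGACG, the core of the cAMP response element (CRE) that CREB binds, for the full element TGACGTCA, for the CArG box of serum response factor, for the Egr site GCGTGGGCG and for its first 8 letters, GCGTGGGC, which lie within every full Egr site. The Egr2 window held the CRE core on each strand and a CArG box between them, at bases -72 to -63 from the start. Of the 5 Egr2 windows in the table, 3 overlapped and held the same matches, of which the most upstream is printed, another held a CArG box alone and the last held none. The Egr4 window held the CRE core at 2 places and no match to the other motifs. The Nab1 window held the full Egr site at 2 places, 1 on each strand, at bases -141 to -133 and -109 to -101, with a CRE core between them. The Nab2 window held the 8-letter form once, at bases -32 to -25, and no other match. Among 32851 windows of the same length, 17.8% held the CRE core, 1.55% the full CRE, 1.47% a CArG box, 0.54% the Egr site and 1.37% its 8-letter form. The GC share was 61.6% in the Egr2 window, 68.0% in that of Egr4, 80.8% in that of Nab1 and 72.8% in that of Nab2, against a median of 52.4% over all windows. The motif shares above were not matched for GC share. A match describes the letters in these windows and not occupancy by a factor.

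The values were log2 signals, and array medians lay between 4.84 and 4.88. All 6 genes lay above 4.47, the 95th percentile of 1015 olfactory receptor genes, a mark of background, on all 8 arrays. Of the markers of neurons, 17 of 17 had a mean above that level and their mean per array lay between 8.59 and 8.67. Astrocyte markers did so for 10 of 10 genes, fibroblast markers for 7 of 8, oligodendrocyte-lineage markers for 7 of 9, microglial markers for 6 of 10 and endothelial markers for 3 of 7. The astrocyte list had means of 6.45, 6.51, 6.39 and 6.33 at the 4 times in order, and its part in the changes below was not tested. No marker passed the test at 30 or 180 min, and at 300 min Prox1, a dentate granule cell factor, was lower by 0.66 ± 0.12 (SE, limma adjusted p = 0.0392). The Prox1 call was lost without either array of 0, 30 or 300 min (highest adjusted p = 0.276), after quantile normalization (0.0516) and with the replicate number as a block (0.0517). In RNA from a whole culture, fewer cells of a type and less RNA per cell cannot be told apart.

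Egr1, Egr2 and Egr4 rose by between 1.32 and 1.47 on the log2 scale within 30 min and fell again by 180 min. Egr3 had a smaller difference that did not pass the test. Neither Nab gene passed in any comparison. At 300 min the log2 differences from 0 min were -0.59 for Egr1 and 0.40 for Egr4, and the means of Egr2 were 5.13 at both times. No difference of the 6 genes from 0 min passed at 180 or 300 min. No pair of genes passed a test of a different time course, which 8 arrays leave little room to pass. Tests were made with limma, fitted to all 8 arrays. A call is a Benjamini-Hochberg adjusted p under 0.05 across all 19938 genes. Errors marked SE come from limma's moderated variance, and those marked SD from the 2 replicate arrays. Levels of different genes are not ranked, since each probe set has its own sensitivity.

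**Figure D1:**
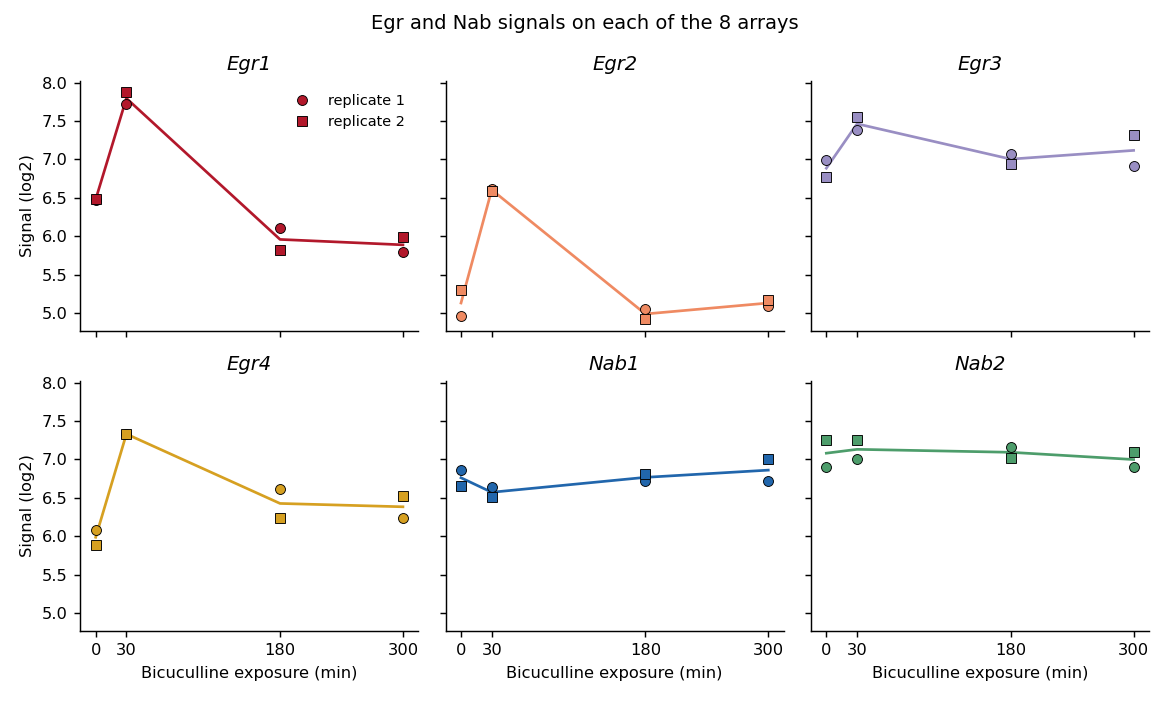
Log2 signal of each gene (vertical axis) against minutes of bicuculline exposure (horizontal axis). Circles and squares are the 2 replicate arrays of each time and lines join their means; the 30 min arrays of Egr1, Egr2 and Egr4 lie apart from all their other arrays, while the Nab1 and Nab2 signals stay between 6.51 and 7.26.

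Egr1, the family member most often used to map active neurons, had signals of 6.47 and 6.49 at 0 min, 7.72 and 7.87 at 30 min, 6.10 and 5.81 at 180 min, and 5.79 and 5.99 at 300 min. Both 30 min arrays were higher than all others, and all 4 later arrays were lower than both 0 min arrays. With 2 arrays per time such separation is common. At 30 against 0 min it held for 19.2% of all genes upward and 18.3% downward. The shares at 180 and 300 min are not given, so separations at those times, here and below, are descriptions only. The rise of Egr1 at 30 min was 2.49-fold (log2 change 1.32 ± 0.13 SE, limma adjusted p = 0.000201), the 11th highest change of all genes. Between 30 and 180 min the signal fell by 1.84 ± 0.13 SE on the log2 scale, a 3.57-fold decrease (limma adjusted p = 6.88e-06) and the 4th lowest change of all genes. The differences from 0 min were then -0.52 ± 0.13 SE at 180 min (limma adjusted p = 0.132, unadjusted 0.00156) and -0.59 ± 0.13 SE at 300 min (limma adjusted p = 0.103, unadjusted 0.000554). Neither passed, and the later one had an adjusted p of 0.0449 when only genes above the median signal were tested, which adjusts over fewer genes. The order of the times was 30, 0, 180 and 300 min, of which the last 2 overlapped.

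Egr2, which is also the myelination factor of Schwann cells, had signals of 4.97 and 5.29 at 0 min, 6.61 and 6.60 at 30 min, 5.06 and 4.92 at 180 min, and 5.09 and 5.17 at 300 min. The 30 min arrays stood far above the rest. The arrays of 180 and of 300 min each overlapped those of 0 min, and those of 300 min were above those of 180 min by 0.14 ± 0.13 SE on average (limma adjusted p = 0.888). Its rise was 2.78-fold (log2 change 1.47 ± 0.13 SE, limma adjusted p = 5.90e-05), the 7th highest of all genes. It was the largest estimate of the 6 genes, but without 0 min replicate 1 it was 1.31 and that of Egr4 was 1.44. From 30 to 180 min it fell by 1.62 ± 0.13 SE on the log2 scale, or 3.07-fold (limma adjusted p = 2.09e-05). The means at 0 and 300 min were 5.13 ± 0.23 and 5.13 ± 0.05 (SD, n = 2), with a 95% interval of the difference from -0.28 to 0.28. The Egr2 signals outside 30 min, 4.92 to 5.29, lay near the background mark of 4.47. Whether this limited a fall below the 0 min level was not tested.

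Egr4, also known as NGFI-C, had signals of 6.08 and 5.89 at 0 min, 7.33 and 7.34 at 30 min, 6.62 and 6.24 at 180 min, and 6.24 and 6.52 at 300 min. All 4 later arrays lay between those of 0 and 30 min and overlapped neither. It rose 2.54-fold at 30 min (log2 change 1.35 ± 0.15 SE, limma adjusted p = 0.000452), the 10th highest change of all genes. It fell by 0.90 ± 0.15 SE on the log2 scale from 30 to 180 min, or 1.87-fold (limma adjusted p = 0.0137). Both calls were lost when every row of the value table was tested, rows without a gene included (adjusted p = 0.113 and 0.247). The fall was also lost without either 30 min array or without 180 min replicate 2, with adjusted p up to 0.163. The remaining differences from 0 min were 0.44 ± 0.15 SE at 180 min (limma adjusted p = 0.235) and 0.40 ± 0.15 SE at 300 min (0.422), and neither passed. The first was 0.25 without 180 min replicate 1 and the second 0.26 without 300 min replicate 2.

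Egr3, which is required for muscle spindle development and is itself an activity-regulated gene of the forebrain, had signals of 6.998 and 6.773 at 0 min, 7.38 and 7.55 at 30 min, 7.07 and 6.94 at 180 min, and 6.91 and 7.32 at 300 min. The 30 min arrays were higher than all others, while those of 180 and 300 min overlapped the 0 min arrays. The difference at 30 min was 0.58 ± 0.15 SE on the log2 scale, or 1.49-fold, the 30th highest of all genes (limma adjusted p = 0.521, unadjusted 0.00159), and did not pass. Its 95% interval ran from 0.26 to 0.90, below the estimates for Egr1, Egr2 and Egr4. The difference between 30 and 180 min, -0.46 ± 0.15 SE, did not pass either (limma adjusted p = 0.256).

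**Figure D2:**
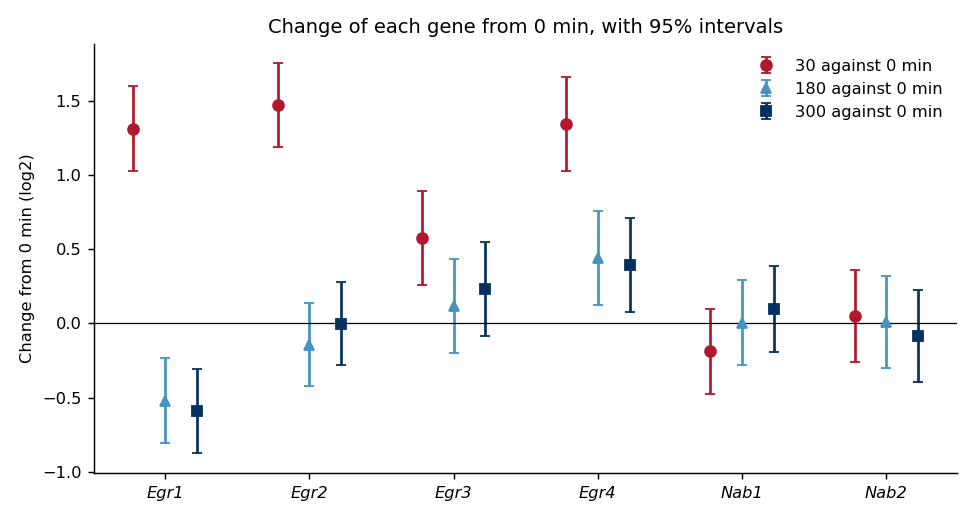
Log2 change of each gene from 0 min (vertical axis) at 30, 180 and 300 min, with bars for the 95% interval of the fit, not adjusted for the number of genes. At 30 min Egr1, Egr2 and Egr4 lie between 1.32 and 1.47; the later values of Egr1 lie at -0.52 and -0.59, those of Egr4 at 0.44 and 0.40, and all 6 intervals of Nab1 and Nab2 include 0.

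Of the corepressors, Nab1 had signals of 6.86 and 6.66 at 0 min, 6.64 and 6.51 at 30 min, 6.72 and 6.82 at 180 min, and 6.71 and 7.01 at 300 min. Its 30 min arrays were the lowest of the 8 by a small margin, and the other times overlapped. The log2 change was -0.19 ± 0.13 SE at 30 min (95% interval -0.48 to 0.10), 0.01 ± 0.13 SE at 180 min and 0.10 ± 0.13 SE at 300 min (-0.19 to 0.39). Nab2 had signals of 6.91 and 7.26 at 0 min, 7.01 and 7.26 at 30 min, 7.16 and 7.02 at 180 min, and 6.90 and 7.10 at 300 min, and every pair of times compared overlapped. Its log2 change was 0.05 ± 0.15 SE at 30 min (-0.26 to 0.36), 0.01 ± 0.15 SE at 180 min (-0.30 to 0.32) and -0.08 ± 0.15 SE at 300 min (-0.39 to 0.23). The upper ends of these 95% intervals of Nab2, 0.36 at most, lay below the 30 min changes of Egr1, Egr2 and Egr4.

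At 30 min, 3 of the 6 genes were called higher than at 0 min, against 0.0802% of all genes, and 0 were called lower, against 0.015%. The 6 genes were chosen with earlier results of these data known. The arrays of 4 of the 6 did not overlap and were higher at 30 min, which held for 19.2% of all genes. Those of Nab1 did not overlap and were lower, as held for 18.3% of all genes. The median log2 change was 0.95 over the 6 genes and 0.0006 over all genes. Between 30 and 180 min the same 3 genes, Egr1, Egr2 and Egr4, were called lower, against 0.171% of all genes. These comparisons share the 30 min arrays. In the F test over all 4 times the same 3 passed (limma adjusted p = 9.04e-06 for Egr1, 3.15e-05 for Egr2 and 0.00163 for Egr4), against 0.813% of all genes, while Egr3 (0.245), Nab1 (0.685) and Nab2 (0.945) did not. With every row of the value table tested, Egr4 lost this call (adjusted p = 0.175), and Egr1 (0.0301) and Egr2 (0.0327) passed.

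**Figure D3:**
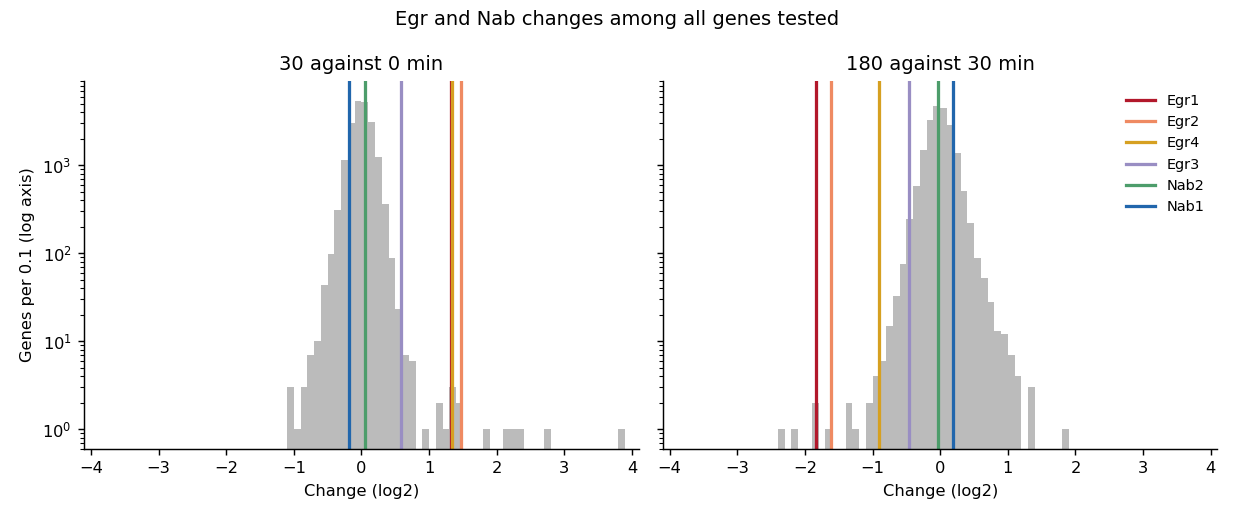
Number of genes per step of 0.1 in log2 change (vertical log axis) against the log2 change (horizontal axis) for 30 against 0 min (left) and 180 against 30 min (right), with lines at the 6 genes. Egr1, Egr2 and Egr4 lie in the right tail on the left (1.32, 1.47 and 1.35) and in the left tail on the right (-1.84, -1.62 and -0.90), and Nab1 and Nab2 lie within the bulk in both.

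At 180 and at 300 min, 0 of the 6 genes were called against 0 min by limma, where 0.331% and 0.286% of all genes were called in either direction. At an unadjusted p under 0.05 there were 2 at each time, Egr1 and Egr4, which lay on opposite sides of 0, against 12.8% of all genes at 180 min and 8.96% at 300 min. Between 180 and 300 min 0 of the 6 genes and 0 of all genes were called (0% of 19938), and 0 of the 6 had an unadjusted p under 0.05, against 5.72% of all genes.

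Whether the genes followed different time courses was tested on the difference between a pair of genes within each array, with an exact permutation test of the F statistic over the 4 times. The 105 ways to divide 8 arrays into 4 sets of 2 allow no p below 0.0095, and 15 pairs were compared. A single pair at that p would not pass after adjustment over the 15 pairs. A difference confined to 1 time also leaves other divisions nearly as extreme. Egr2 against Nab1, for example, had an F of 30.8 and an exact p of 0.114. A pair that did not pass is therefore not shown to share a course. No pair passed after adjustment over the 15 pairs. The lowest adjusted p was 0.0612, and 8 pairs had an unadjusted p under 0.05 (exact permutation test, in which F takes either direction). The difference between Egr2 and Nab2 had the smallest unadjusted p (exact p = 0.0095), with the Egr2 change exceeding that of Nab2 by 1.42 at 30 min, and by -0.15 at 180 min and 0.08 at 300 min. The changes of Egr1 and Egr4 were within 0.03 of each other at 30 min, and that of Egr1 was lower by 0.96 at 180 min and 0.99 at 300 min (exact p = 0.0667, adjusted 0.1). The change of Egr1 relative to Egr2 was -0.16 at 30 min, -0.38 at 180 min and -0.59 at 300 min (exact p = 0.0476, adjusted 0.0893). Egr2 lay near the background mark of 4.47 at 0, 180 and 300 min, and the part of this in the difference was not tested. The change of Egr3 was 0.77 below that of Egr4 at 30 min (exact p = 0.0190, adjusted 0.0612). The Nab1 and Nab2 courses gave an exact p of 0.514.

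**Figure D4:**
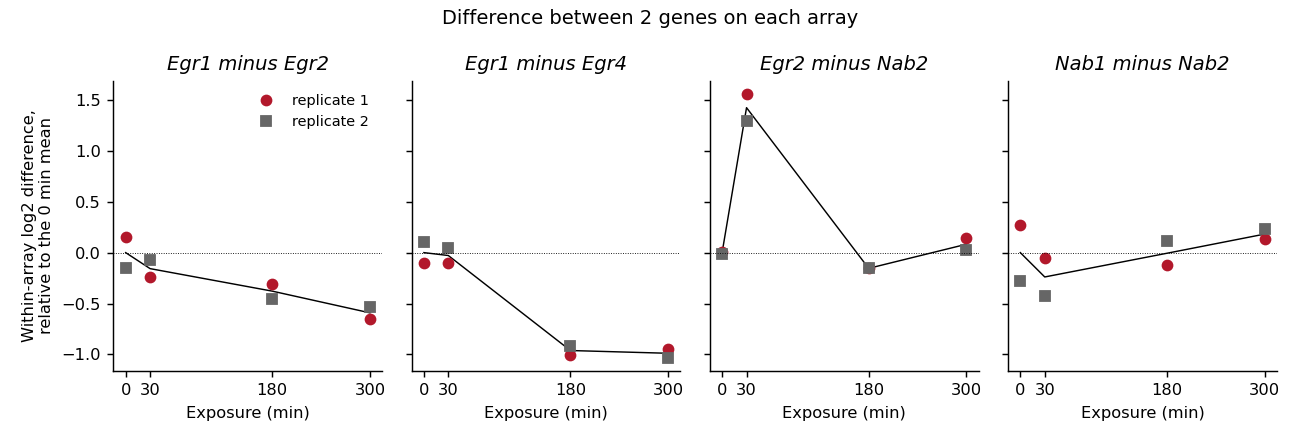
Log2 signal of 1 gene minus that of another on the same array, relative to the 0 min mean (vertical axis), against minutes of exposure, for 4 of the 15 pairs. Points are arrays and lines join the means; Egr1 minus Egr4 is near 0 at 30 min and lies at -0.96 and -0.99 on average at 180 and 300 min, while Egr2 minus Nab2 peaks at 1.42 at 30 min.

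The genes with the most similar courses were found by the root-mean-square difference of the 4 time means, each gene centred on its own mean, for the 4 genes that moved by at least 0.5 from 0 min. Predicted loci, with names starting Gm or LOC or ending Rik, were left out of this search. Egr1 was nearest to Egr2 (0.22 on the log2 scale), then to Btg2 (0.26), an antiproliferative gene, and Dusp1 (0.28), a MAP kinase phosphatase gene. Egr2 was nearest to Dusp1 (0.098), Btg2 (0.14) and Ier2 (0.15), an immediate-early nuclear protein gene. Dusp1 rose by 1.29 ± 0.12 SE at 30 min and Ier2 by 1.16, and neither was called later. Egr4 was nearest to Junb (0.085), an AP-1 subunit gene, Gadd45g (0.099) and Gadd45b (0.15), both stress-response genes. At 180 min Junb, Gadd45g and Gadd45b had log2 changes from 0 min of 0.31, 0.66 and 0.54 (limma adjusted p = 0.479, 0.062 and 0.226). None of them was called at 180 or 300 min. The 30 min calls of Junb and Gadd45b were lost without 0 min replicate 2 or 30 min replicate 1, that of Gadd45b also without the other array of either time, with adjusted p up to 0.0713 and 0.303. The genes nearest to Egr3 were the histone gene H2bc14 (0.020), Pabpc2 (0.041) and Gcsam (0.048), none of which was called at any time. Pabpc2 and Gcsam had time means between 3.49 and 4.04, below the olfactory receptor level of 4.47.

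**Figure D5:**
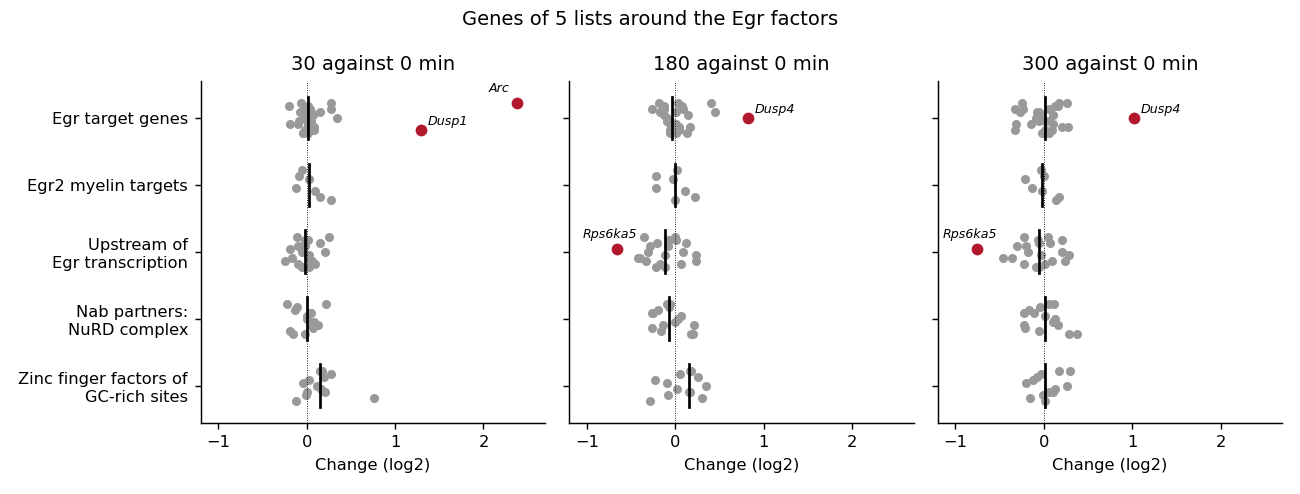
Log2 change from 0 min (horizontal axis) of every measured gene of 5 lists (rows) at 30, 180 and 300 min (panels). Red points are genes called by limma, grey points are genes that did not pass and black bars are list medians, which lie between -0.12 and 0.16; Arc, Dusp1, Dusp4 and Rps6ka5 are the called genes.

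Genes around the Egr factors were counted on 5 lists. Values were found for 29 of 32 listed Egr targets, 7 of 11 Egr2 myelin targets and 21 of 31 upstream genes. They were found for 15 of 15 Nab partners and 13 of 14 other zinc finger genes. The listed genes without a value could not be judged. Of all genes, 5.11% had an unadjusted p under 0.05 at 30 min, 12.8% at 180 min and 8.96% at 300 min, beside which the unadjusted counts of the lists are to be read. Called by limma were 0.0802% of all genes as higher and 0.015% as lower at 30 min. In either direction the shares called were 0.331% at 180 min and 0.286% at 300 min. Of 29 measured genes described as Egr targets, the cytoskeletal plasticity gene Arc and Dusp1 rose at 30 min, 0 fell and 27 did not pass, with a list median of 0.02. Nab1 and Nab2 were on this list and among the 27. An unadjusted p under 0.05 was found for 5, 4 and 4 of the 29 at 30, 180 and 300 min. Arc had signals of 5.84 and 5.94 at 0 min, 8.28 and 8.27 at 30 min, 5.77 and 6.08 at 180 min, and 6.24 and 6.06 at 300 min, high on the 30 min arrays alone. Its rise was 2.38 ± 0.13 SE (limma adjusted p = 4.02e-07). At 180 and 300 min the called target was Dusp4, a nuclear MAP kinase phosphatase gene, with 28 genes not passing at each time. Its signals were 7.17 and 7.37 at 0 min, 7.67 and 7.55 at 30 min, 8.15 and 8.02 at 180 min, and 8.45 and 8.11 at 300 min, and the arrays of both late times were above all arrays of 0 and 30 min. Dusp4 rose by 0.82 ± 0.14 SE at 180 min (limma adjusted p = 0.0263) and by 1.02 ± 0.14 SE at 300 min (0.00452). The 180 min call was lost without any 1 array of 0, 30 or 180 min (highest adjusted p = 0.205), and the 300 min call without replicate 1 of 0 or of 300 min (0.0817). With every row of the value table tested, adjusted p were 0.317 and 0.249 for Dusp4 at these times, 0.309 and 0.279 for Rps6ka5, 0.408 for Prox1 at 300 min, and 0.274 for Junb and 0.518 for Gadd45b at 30 min, so that these calls were lost. All genes had medians between -0.003 and 0.0006 in these comparisons, and those of the target list were -0.04 at 180 min and 0.01 at 300 min.

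Of the 7 measured myelin and sterol genes associated with Egr2 in Schwann cells, none passed at any time (limma), and none had an unadjusted p under 0.05. The members with the smallest F p were the connexin gene Gjb1 (0.27 ± 0.14 SE at 30 min) and the squalene epoxidase gene Sqle (-0.22 ± 0.12 SE at 180 min). Gjb1 had time means between 4.33 and 4.61, around the olfactory receptor level of 4.47. Those of Mag, between 4.22 and 4.45, were below it. For such dim genes a lack of change is not shown.

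Of 21 measured genes that act upstream of Egr transcription, Rps6ka5, which encodes the CREB and histone kinase MSK1, was the 1 called, and it fell. Its signals were 6.76 and 6.67 at 0 min, 6.57 and 6.48 at 30 min, 6.09 and 6.04 at 180 min, and 5.87 and 6.06 at 300 min, with the late arrays below all others. The log2 change was -0.65 ± 0.12 SE at 180 min (limma adjusted p = 0.0420) and -0.75 ± 0.12 SE at 300 min (0.0160). The 180 min call was lost without any 1 of the 8 arrays (0.0537 to 0.248), after quantile normalization (0.0595) and with the replicate number as a block (0.0516). The 300 min call was lost without either 0 min array or without 300 min replicate 1 (highest adjusted p = 0.174). The list's median was -0.01 at 30 min, -0.12 at 180 min and -0.06 at 300 min. An unadjusted p under 0.05 was found for 1, 7 and 4 of the 21 at these times. The serum response factor gene Srf, the Elk genes and the MAP kinase kinase genes Map2k1 and Map2k2 did not pass.

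Of 15 genes of the NuRD chromatin-remodelling complex and a further Egr-binding helicase, which are partners of Nab and Egr proteins, none passed at any time (limma), with 0, 1 and 1 of the 15 at an unadjusted p under 0.05 at 30, 180 and 300 min. The smallest F p were those of Ddx20, the helicase gene (0.38 ± 0.15 SE at 300 min), and Mta3 (-0.27 ± 0.12 SE at 180 min). Of 13 other zinc finger genes whose products bind GC-rich sites, none passed against 0 min. The unadjusted p was under 0.05 for 1, 2 and 2 of the 13 at these times. Klf4, a Krüppel-like factor gene, had signals of 5.57 and 5.85 at 0 min, 6.66 and 6.28 at 30 min, 5.98 and 6.05 at 180 min, and 5.67 and 5.44 at 300 min. Its 30 min arrays were the highest, with a log2 change of 0.76 ± 0.15 SE (limma adjusted p = 0.146). It passed the F test over the 4 times (limma adjusted p = 0.0289), as did 0.813% of all genes. The alternatives were not run on Klf4, and Egr4, with a smaller F p, lost its F call with every row tested. Klf5 was at 0.34 ± 0.12 SE at 180 min (limma adjusted p = 0.249).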

How the data were processed

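Biotin-labelled RNA was read on Mouse Gene ST 1.0 arrays of Affymetrix, per the labels' protocols. The authors deposited 1 log2 value per transcript cluster and array, and the log base was taken from the values (1.22 to 15.0). Background correction, probe summary, normalization, software and build are not given in the sources used here, and a background left in dim signals would shrink their folds. Of 35399 rows, 21789 had 1 gene symbol in the platform annotation. The cluster with the highest mean stood for each of 19938 genes, with no filter on dim genes and no further normalization.

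A mean per time was fitted to all 8 arrays with limma 3.58.1 in R 4.3.3 (lmFit, eBayes defaults, 4 residual and 10.1 prior degrees of freedom), two-sided, adjusted by Benjamini-Hochberg. Pairs of genes were compared by exact permutation. Groups and replicate numbers came from the labels. These do not say whether replicates were separate dissections, so p-values reflect only the spread of the arrays at hand, whose number limits precision. Replicate arrays correlated at 0.985 to 0.990 across rows.

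The genes, lists and rules were chosen with earlier results of these data known. Named were the 6 genes and, for each that moved by 0.5, the 3 genes of nearest course other than predicted loci. Of each list, the called genes were named or, with none called, the 2 with the smallest F p. Promoters came from RefSeq (GRCm38.p6). The alternatives were quantile and median scaling, a signal filter, all rows, averaged clusters, another variance prior, fewer arrays, a replicate block and each array left out.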

Additional observations from a re-analysis of the deposited data

How the results depend on the processing

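The alternatives were also run on the other named genes that were called against 0 min, a choice made after seeing the data. Named genes without such a call, Klf4 among them, were not run. Counts of the 6 genes called stayed within 1.5 times, except at 300 against 0 min with only genes above the median signal, where 1 was called (Egr1, lower). Counts of all genes moved more. With that filter they were 125 at 180 and 104 at 300 against 0 min. With every row tested they were 1 at 180 and 5 at 300 against 0 min, 9 for 180 against 30 min and 13 for F. With a trended robust prior they were 108, 91, 156 and 255. With only the 2 times compared they were 19 for 180 against 0 min and 55 for 180 against 30 min. Leaving out 1 array gave 12 to 21 genes at 30 min, 15 to 68 at 180 min and 17 to 61 at 300 min against 0 min, 17 to 93 for 180 against 30 min, 0 to 14 for 300 against 180 min and 49 to 171 for F, against 19, 66, 57, 100, 0 and 162. The cause was not tested, beyond the fewer arrays or other number of genes in each fit.

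The 3 rises at 30 min kept their call without each array in turn, at 1.24 to 1.39 for Egr1, 1.31 to 1.64 for Egr2 and 1.25 to 1.44 for Egr4. Signs turned only for values that had not passed. Egr2 at 300 against 0 min was 0.0021 after quantile normalization and 0.0086 with centred medians, and Nab2 at 180 against 30 min was 0.0017 after quantile normalization. Without 1 array, Egr2 ran from -0.31 to 0.020 at 180 min and -0.16 to 0.16 at 300 min against 0 min. Nab1 ran from -0.096 to 0.11 and -0.048 to 0.25 at these times. Nab2 ran from -0.12 to 0.22 at 30 min, -0.16 to 0.19 at 180 min and -0.26 to 0.091 at 300 min, and from -0.16 to 0.085 for 180 against 30 min. For 300 against 180 min the ranges were -0.21 to 0.073 for Egr1, -0.092 to 0.32 for Egr3, -0.23 to 0.15 for Egr4, -0.053 to 0.24 for Nab1 and -0.19 to 0.0016 for Nab2. With only the arrays of the 2 times compared, Dusp4 at 180 min (adjusted p = 0.053), Rps6ka5 at 180 min (0.0906) and Prox1 at 300 min (0.0856) lost their calls. The pair tests gave 0 pairs under each alternative run.

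With the replicate number as a block, 3 of the 6 genes were called at 30 against 0 min, 0 at 180 and 0 at 300 against 0 min and 3 for 180 against 30 min, and all genes called were 19, 53, 49 and 87. Replicate differences of different times correlated between -0.094 and 0.092 across genes, so the numbers were not taken to pair the arrays.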
